A study of Mus musculus with 12 samples.

Results

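The genes described here were 8 genes of the neutrophil lineage, of 23472 in the table of read counts. They were 6 genes switched on late in neutrophil maturation (S100a8, S100a9, Ltf, Camp, Ngp and Lcn2) and 2 genes of granulocyte progenitors (Elane and Mpo). All 8 were chosen by name, with their counts in these libraries known, so their own differences between groups are given as a description and without a test. Neutrophils fill their granules in order: the azurophil (primary) granules form in promyelocytes and carry Mpo and Elane, the specific (secondary) granules follow in myelocytes and carry Ltf, Camp, Ngp and Lcn2, and gelatinase granules come last. S100a8 and S100a9 are no granule genes in the strict sense, since calprotectin, which they encode, lies in the cytosol, where it is among the most abundant proteins of mature neutrophils. Progenitor genes are silenced as specific granule genes come on, so a maturing neutrophil does not transcribe both groups at their peak.

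The RNA came from bone marrow cells labelled LT-HSC (long-term haematopoietic stem cells, which sustain blood production) of C57BL/6 mice, sequenced after poly-A selection. In the study, 6 libraries labelled Jak1 KO from cre-positive mice were set against 6 wt libraries from cre-negative mice. Both genotypes had received poly(I:C), an interferon-inducing double-stranded RNA used here to induce the deletion, in 4 doses, 4 to 6 weeks before the marrow was taken. The labels name neither the cre driver nor the age of the mice. Library names fell into 2 sets with 3 libraries of each genotype in each: the VD set (Jak1 KO 1 to 3 and wt 1 to 3, named MXplus and MXminus) and the ZL set (Jak1 KO 4 to 6 and wt 4 to 6). What the name sets stand for is not stated, so the set and anything that went with it cannot be told apart. No label states that libraries of 1 group are separate mice, and p-values therefore measure the spread between these libraries, which may be technical in part.

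Libraries held 8989965 to 16798427 counts in the VD set and 13804931 to 28701855 in the ZL set. Reads of the ribosomal RNA gene Rn45s made up 14.8% to 22.6% of VD counts but 0.511% to 0.950% of ZL counts. A count over this gene does not separate precursor from mature ribosomal RNA. Jak1 itself had 246 to 727 normalised CPM (counts scaled to the size of each library) in the libraries labelled Jak1 KO and 321 to 435 in wt. A count over the whole gene does not show whether an exon was deleted, so it checks the labels neither way. Of the 16 stem cell markers examined, all 16 passed the filter on low counts, and their summed level was 3260 to 4106 CPM for VD and 3051 to 5932 CPM for ZL. The alpha globin genes Hba-a1 and Hba-a2 are listed at 0 in every library, also in wt 2, which held 30751 reads of the globin gene Beta-s, so their 0 cannot be read as an absence of erythroid RNA. T cell Cd3e averaged 0.011 CPM in VD and 0.037 CPM in ZL libraries.

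Genes are placed on GRCm38 (mm10, the build in the submitters' processing notes) with GENCODE annotation. S100a8 (chr3:90668978-90670035, plus strand) and S100a9 (chr3:90692632-90695721, minus strand) lie 22596 bases apart. Camp (chr9:109847379-109849617, minus), Ngp (chr9:110419747-110423012, plus) and Ltf (chr9:111019271-111042767, plus) share a stretch of chromosome 9, with 1169653 bases between Camp and Ltf. Lcn2 lies on chromosome 2 (chr2:32384633-32388252, minus), Elane on chromosome 10 (chr10:79886247-79888215, plus) and Mpo on chromosome 11 (chr11:87793581-87804413, plus). Prtn3, an azurophil protease gene, ends 3072 bases before Elane starts.

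Promoters of all 8 genes were found in RefSeq (GRCm38.p6) and searched on both strands, over the 250 bases before the start, for the letters of 4 motifs of factors that act in granulocytes or at core promoters. C/EBP factors, which drive granule genes, bind sites like TTNNGNAAT, and PU.1, the master factor of myeloid cells, binds around GAGGAA. The C/EBP letters stood in the promoters of S100a9, Ltf and Ngp, 3 of the 8 and all late genes, against 10.2% of 32851 promoters. The PU.1 letters stood in 5 of the 8 (S100a8, Ltf, Lcn2, Elane and Mpo), against 23.3% of promoters. RUNX letters (TGTGGT) were present in 1 of the 8, against 14.05% of promoters, and TATA letters (TATAAA) in 1, against 12.4%. No match of one motif overlapped a match of another. The windows printed here are 95 bases of 4 promoters, from 160 to 66 bases before the start, chosen to set the 3 late genes with C/EBP letters beside the progenitor gene Elane, which had PU.1 letters alone in its window; capitals mark these motifs, and each is written 5′ to 3′ on the strand of the gene. They are S100a9 (chr3:90695787-90695881, minus strand), Ltf (chr9:111019132-111019226, plus), Ngp (chr9:110419648-110419742, plus) and Elane (chr10:79886152-79886246, plus).
S100a9: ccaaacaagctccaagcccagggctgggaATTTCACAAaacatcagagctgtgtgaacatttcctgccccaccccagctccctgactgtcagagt
Ltf: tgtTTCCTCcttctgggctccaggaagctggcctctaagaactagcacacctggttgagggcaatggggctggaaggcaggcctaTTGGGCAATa
Ngp: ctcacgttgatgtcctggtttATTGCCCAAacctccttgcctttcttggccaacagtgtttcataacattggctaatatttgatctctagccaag
Elane: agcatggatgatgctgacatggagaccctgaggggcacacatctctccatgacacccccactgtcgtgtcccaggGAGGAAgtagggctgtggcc
A match of letters is a description of the sequence and not a mapped binding site.

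The 6 late genes were at 29.1 CPM or more in every VD library and at 6.11 CPM or less in every ZL library. Summed, they had 606, 723 and 1256 CPM in Jak1 KO 1 to 3 and 478, 531 and 1289 CPM in wt 1 to 3. In the ZL set the same sum was 12.3, 7.13 and 7.403 CPM in Jak1 KO 4 to 6 and 5.82, 8.54 and 6.40 CPM in wt 4 to 6. The lowest VD library was thus far above the highest ZL library, in both genotypes. Even in VD the 6 genes held a small part of the library, 0.042% to 0.130% of the counts, against 0.00066% to 0.0012% in ZL.

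S100a8, the light subunit of calprotectin, had 107, 121 and 197 CPM in Jak1 KO 1 to 3 and 68.3, 85.4 and 237 CPM in wt 1 to 3, against 6.11, 2.03 and 1.79 CPM in Jak1 KO 4 to 6 and 2.33, 2.33 and 1.85 CPM in wt 4 to 6. The 5 other ZL libraries lay between 1.79 and 2.33 CPM, and Jak1 KO 4 stood above them. S100a9, the partner subunit, had 193, 236 and 415 CPM in Jak1 KO 1 to 3 and 149.8, 163 and 371 CPM in wt 1 to 3, against 4.37, 3.23 and 2.35 CPM in Jak1 KO 4 to 6 and 2.21, 2.62 and 3.52 CPM in wt 4 to 6. In both genes Jak1 KO 3 and wt 3 were the highest libraries of their genotype, and the sets did not overlap. The mean level was 135.9 ± 66.5 CPM in VD and 2.74 ± 1.67 CPM in ZL for S100a8, and 254 ± 112 CPM in VD and 3.05 ± 0.822 CPM in ZL for S100a9 (SD, n = 6 each).

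Of the specific granule genes, Ltf, which encodes the iron-binding protein lactoferrin, had 95.4, 121 and 219 CPM in Jak1 KO 1 to 3 and 91.0, 79.2 and 223 CPM in wt 1 to 3. Its ZL values were 0.377, 0.666 and 1.71 CPM in Jak1 KO 4 to 6 and 0, 0.963 and 0.037 CPM in wt 4 to 6. The wt 4 library held no Ltf read and wt 6 held 1, while Jak1 KO 6 held 43. Ngp (neutrophilic granule protein) had 125, 152 and 252 CPM in Jak1 KO 1 to 3 and 106, 114 and 288 CPM in wt 1 to 3, against 1.13, 0.666 and 1.07 CPM in Jak1 KO 4 to 6 and 0.659, 1.63 and 0.592 CPM in wt 4 to 6. No ZL library came within the VD range of either gene.

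Camp, which encodes the antimicrobial peptide cathelicidin, had 37.3, 31.3 and 84.9 CPM in Jak1 KO 1 to 3 and 29.1, 41.5 and 81.6 CPM in wt 1 to 3, against 0.301, 0.254 and 0.239 CPM in Jak1 KO 4 to 6 and 0.504, 0.631 and 0.296 CPM in wt 4 to 6. Lcn2, the siderophore-binding lipocalin of specific granules, had 49.8, 61.6 and 88.0 CPM in Jak1 KO 1 to 3 and 34.3, 48.6 and 89.0 CPM in wt 1 to 3, against 0, 0.285 and 0.239 CPM in Jak1 KO 4 to 6 and 0.116, 0.365 and 0.111 CPM in wt 4 to 6. Reads of both were few in ZL, where all 6 libraries together held 58 reads of Camp and 32 of Lcn2. In VD they held 3364 and 4028 reads.

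**Figure D1:**
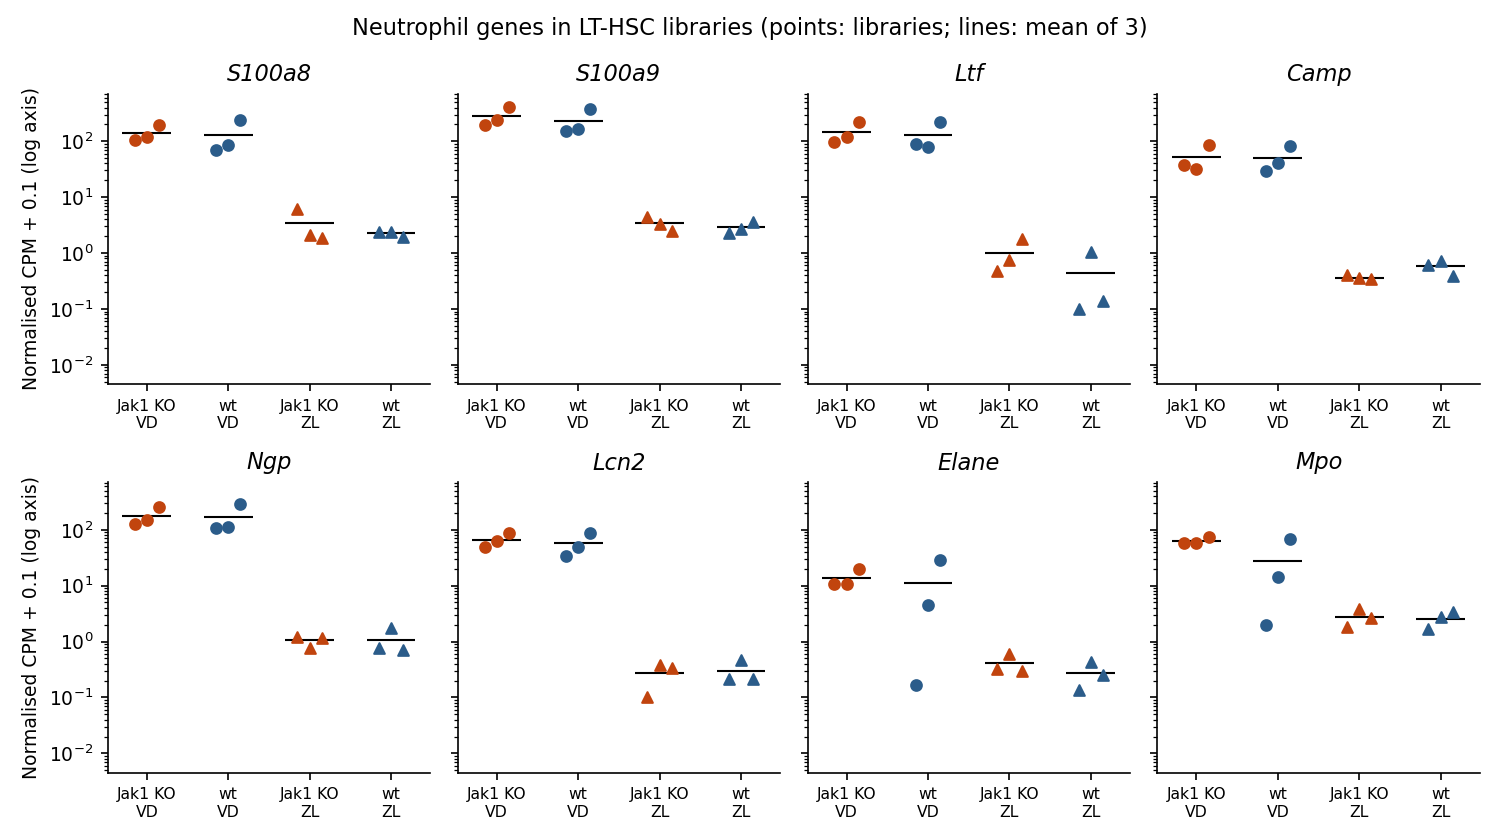
Normalised CPM plus 0.1 (log axis) of each gene, with 1 point per library, grouped by label and name set, and a line at the mean of 3. The 6 late genes sit between 29.1 and 415 CPM in VD and at 6.11 CPM or below in ZL, while Elane and Mpo spread widely over the wt VD libraries.

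Elane and Mpo, the progenitor genes, were higher in 5 of the 6 VD libraries than in any ZL library, but not in wt 1. Mpo, which encodes the peroxidase of azurophil granules, had 57.4, 56.9 and 73.1 CPM in Jak1 KO 1 to 3, but 1.90, 13.9 and 67.5 CPM in wt 1 to 3. Its ZL values were 1.73, 3.68 and 2.59 CPM in Jak1 KO 4 to 6 and 1.55, 2.62 and 3.22 CPM in wt 4 to 6. The wt 1 library lay inside the ZL range. Elane, which encodes neutrophil elastase, had 10.8, 10.5 and 20.1 CPM in Jak1 KO 1 to 3 and 0.068, 4.37 and 28.8 CPM in wt 1 to 3, against 0.226, 0.507 and 0.199 CPM in Jak1 KO 4 to 6 and 0.039, 0.332 and 0.148 CPM in wt 4 to 6. In wt 1 that was 1 read of Elane, below the 3 reads taken here as the detection floor (0.203 CPM in that library, which covers counting error only), against 1007 reads of S100a8 in the same library.

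In the VD set, reads of Elane and Mpo together made 11.2%, 9.32% and 7.42% of the reads of the 6 late genes in Jak1 KO 1 to 3, and 0.411%, 3.44% and 7.47% in wt 1 to 3. In the ZL set, where a library held 150 to 257 reads of the late genes, this share was 15.95%, 58.7% and 37.6% in Jak1 KO 4 to 6 and 27.3%, 34.6% and 52.6% in wt 4 to 6. Relative to the late genes, progenitor reads were therefore scarcer in every VD library than in any ZL library. Ctsg, which encodes the azurophil protease cathepsin G, followed the same pattern in VD, with 93, 66 and 93 reads in Jak1 KO 1 to 3 and 0, 3 and 108 reads in wt 1 to 3. Elane reads as a share of Mpo reads ranged from 3.57% in wt 1 to 42.7% in wt 3 within VD, so the ratio of the progenitor genes to each other was not fixed.

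**Figure D2:**
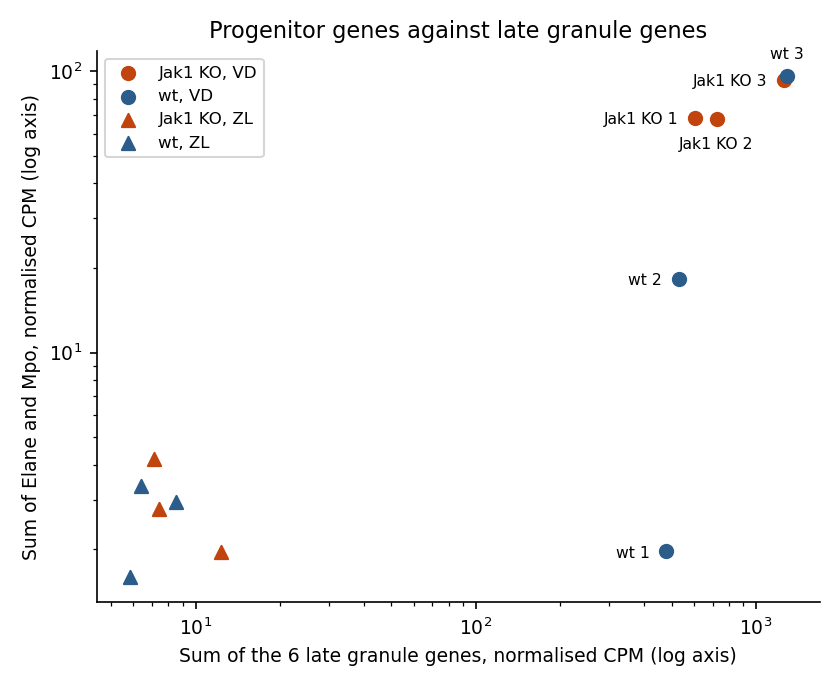
Sum of Elane and Mpo against the sum of the 6 late genes, both in normalised CPM on log axes, 1 point per library (VD libraries are named). The 6 VD libraries differ less than 3-fold on the late axis (478 to 1289 CPM) but run from 1.97 CPM in wt 1 to 96.3 CPM in wt 3 on the progenitor axis, and the ZL libraries cluster at the lower left.

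Per kilobase of exon, which allows levels to be compared between genes, the VD means were, from high to low, S100a9 (487 CPM per kb), S100a8 (196), Ngp (141), Camp (67.2), Ltf (40.02), Lcn2 (23.6), Mpo (13.2) and Elane (12.6). Over the 6 VD libraries, the range of each gene overlapped that of its neighbour in this order. In ZL the means were 5.84 CPM per kb for S100a9, 3.95 for S100a8, 0.784 for Ngp, 0.749 for Mpo, 0.489 for Camp, 0.246 for Elane, 0.181 for Ltf and 0.071 for Lcn2. The ZL ranges of S100a8 (2.58 to 8.80 CPM per kb) and Ngp (0.485 to 1.33) did not overlap, while those of all other neighbours did. Mpo stood below Lcn2 in VD and above Camp in ZL. Prtn3, beside Elane on chromosome 10, had 68.2 ± 9.93 CPM per kb in VD and 82.5 ± 31.8 in ZL (SD, n = 6 each), more than Elane in both sets.

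The mix of late transcripts was much the same in each VD library and not in ZL. S100a9 made 31.4 ± 1.52% of the late reads in VD and 39.4 ± 9.23% in ZL, and S100a8 made 16.5 ± 1.45% in VD and 33.1 ± 9.76% in ZL (SD, n = 6 libraries each). The specific granule genes took smaller parts in ZL: Ngp made 21.3 ± 0.892% in VD and 12.1 ± 3.98% in ZL, Ltf 16.9 ± 1.43% in VD and 7.90 ± 8.77% in ZL, and Lcn2 7.83 ± 0.932% in VD and 2.54 ± 1.61% in ZL. Camp made 6.24 ± 1.13% in VD and 4.99 ± 2.49% in ZL. Such shares depend on gene length and are compared between libraries only. The ZL shares rest on 1154 reads over 6 libraries, against 53502 in VD, so counting error is larger there.

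**Figure D3:**
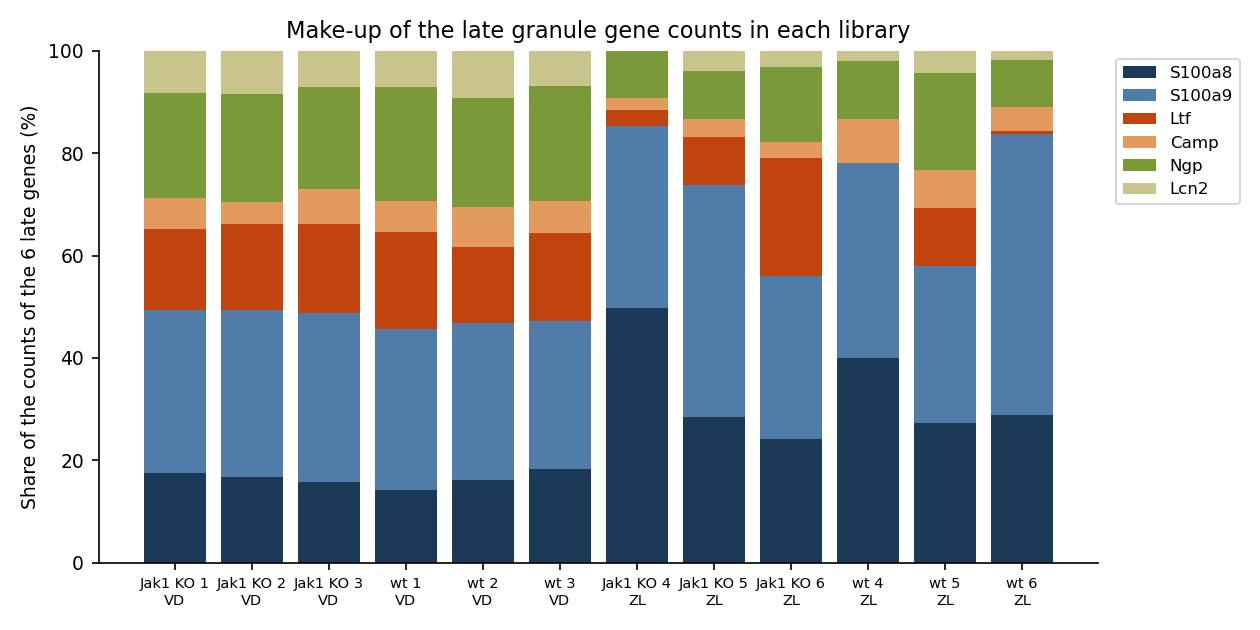
Share of each late gene in the reads of all 6 (percent, bars stacked to 100), by library. The VD bars are nearly alike, with S100a8 at 14.3% to 18.3%, whereas S100a8 runs from 24.2% to 49.7% in ZL and Ltf from 0% to 23.1%.

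Within the VD set the late genes ranked the libraries almost alike. S100a8, Ngp and Lcn2 put them in 1 identical order, with wt 3 first, Jak1 KO 3, Jak1 KO 2, Jak1 KO 1 and wt 2 next, and wt 1 last. Camp departed most, with Jak1 KO 3 first and wt 2 ahead of Jak1 KO 1 and Jak1 KO 2. Pearson's r between pairs of late genes over these 6 libraries ran from 0.87 (Ltf and Camp) to 0.98 (Ltf and Ngp), with Spearman's rho from 0.54 (Ltf and Camp) to 1 (S100a8 and Ngp), and Elane and Mpo had r = 0.98 and rho = 0.94. Between groups r ran from 0.58 (Camp and Mpo) to 0.88 (Lcn2 and Elane). The points share libraries and scaling, and these values describe likeness without a test.

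On the log2 scale, VD over ZL, the fit with name set and genotype gave 5.69 ± 0.42 for S100a8, 6.39 ± 0.33 for S100a9, 7.82 ± 0.69 for Ltf, 7.09 ± 0.41 for Camp, 7.49 ± 0.40 for Ngp and 8.19 ± 0.44 for Lcn2 (SE). The median of the 6 was 7.29 (7.04 to 7.52 with each library left out in turn), beside -0.20 for all 13184 genes tested. Mpo was higher by 4.01 ± 0.62. Without wt 3 that became 3.36. Elane did not pass the filter on low counts (0.654 CPM before TMM scaling, edgeR's adjustment of library sizes, in at least 6 libraries, reached in 5), and in a fit to all genes with a read it was higher by 5.69 ± 0.76. As ratios of mean CPM, VD over ZL was 332 for Lcn2, 221 for Ltf, 180.3 for Ngp, 137 for Camp, 83.4 for S100a9, 51.4 for Elane, 49.7 for S100a8 and 17.6 for Mpo.

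All 7 genes that passed the filter were called higher in VD (edgeR, adjusted p under 0.05), where 24.5% of all genes were called higher and 35.4% lower, and nothing is read from this count because the comparison entered the choice of genes. In the 6 late genes all 6 VD libraries were above all 6 ZL libraries, which held for 15.8% of genes tested. Lcn2 passed the filter through VD libraries alone, Camp had 1 ZL library over that level (0.654 CPM before TMM scaling) and Ltf 3, so these genes could be tested only because they were high in VD. These are bulk libraries, in which more cells of a type and more RNA per cell cannot be told apart.

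The other granule genes did not all follow, in a comparison where 24.5% of all genes were called higher and 35.4% lower. Of 11 specific granule genes other than these, 6 rose in VD, 1 fell and 4 did not pass, with a median log2 change of 4.30. Of the 6 that rose, 5 (all but Cybb) reached the filter level in at most 1 ZL library and could be tested only because they were high in VD, so their values are given without a p and neither the count nor the median supports a difference. Cd177, a neutrophil surface protein, averaged 20.6 CPM in VD and 0.166 CPM in ZL (log2 difference 6.93). Mmp8, the neutrophil collagenase, averaged 22.7 CPM in VD and 0.234 in ZL (6.53), and the haptoglobin gene Hp 15.6 CPM in VD and 0.185 in ZL (6.35). Chi3l3 and Fcnb, a chitinase-like protein and a ficolin, rose by 6.65 and 4.30, and Cybb, the large subunit of the phagocyte oxidase, by 4.41. Cyba, its small subunit, which many cell types express, averaged 57.9 CPM in VD and 122 CPM in ZL and fell by 1.04. Pglyrp1, Ceacam1, Itgb2 and Itgam had differences of 0.46, 0.26, 0.10 and 0.93 that did not pass. The difference was 7.65 for Cd177 without wt 4 and 7.24 for Mmp8 without wt 5.

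Most azurophil granule genes other than Mpo, Elane and Ctsg were lower in VD, where 35.4% of all genes were called lower and 24.5% higher. Of 10 tested besides Mpo, 0 rose (edgeR; likewise 0 with DESeq2), 7 fell and 3 did not pass, with 7 at an unadjusted p under 0.05 and a median of -0.89. Ctsg did not pass the filter, and in the fit to all genes with a read 1 of 11 rose (Ctsg, by 6.42, from 363 reads in VD and 9 in ZL) and 6 fell. Ctsc, which activates the granule proteases, averaged 57.1 CPM in VD and 156 CPM in ZL (-1.45, edgeR adjusted p = 7.7e-07), and Srgn, the proteoglycan core that packs granule proteins, 497 CPM in VD and 1155 CPM in ZL (-1.20, adjusted p = 0.0006). Cd63, Serpinb1a, Lyz2, Prss57 and Gusb fell by 1.34, 1.23, 0.99, 0.80 and 0.52. The call of Prss57 was lost without Jak1 KO 4 (-0.43, edgeR adjusted p = 0.19), Jak1 KO 1, wt 1, wt 3 or wt 5, and with DESeq2 size factors (-0.67, adjusted p = 0.072). Ctsc, Srgn, Cd63, Lyz2 and Gusb are expressed in many cells that are no granulocytes. Prtn3, the neighbour of Elane, had 105, 115 and 149.7 CPM in Jak1 KO 1 to 3 and 102, 114 and 123 CPM in wt 1 to 3, against 245, 109.7 and 85.3 CPM in Jak1 KO 4 to 6 and 132, 152 and 133 CPM in wt 4 to 6. Its log2 difference of -0.28 ± 0.22 did not pass (edgeR adjusted p = 0.29) and, unlike Elane, it was close in wt 1 (102 CPM) and Jak1 KO 1 (105 CPM). Calr and Ms4a3 had differences of -0.05 and 0.14 that did not pass.

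Among the latest neutrophil genes, 9 of 18 tested rose, 2 fell and 7 did not pass, with a median of 1.31. Over all genes, 24.5% were called higher and 35.4% lower. Of the 9 that rose, 6 (Mmp9, Retnlg, Ifitm6, Trem3, Fpr1 and Lrg1) reached the filter level in at most 1 ZL library and could likewise be tested only through VD. Mmp9, the gelatinase that names its granule, averaged 30.4 CPM in VD and 0.320 CPM in ZL (7.04), and Retnlg 30.8 CPM in VD and 0.243 CPM in ZL (7.01). Ifitm6 and Trem3 had no read in any ZL library, against 694 and 124 reads in VD, and were at least 529-fold and at least 97.6-fold higher in VD (3 reads over the ZL group taken as the floor). Fpr1, the formyl peptide receptor, rose by 4.91, Lrg1 by 3.66, the chemokine receptor gene Cxcr2 by 1.53, Slc11a1 by 1.501 and Ccl6 by 1.22. Clec4e and Anxa1 fell by 1.20 and 1.08. Mmp9 differed by 8.56 without Jak1 KO 4 and Lrg1 by 4.64 without wt 5. The call of Slc11a1 was lost without Jak1 KO 3 (1.07, edgeR adjusted p = 0.11) or Jak1 KO 5, and that of Ccl6 without Jak1 KO 3 (1.02, adjusted p = 0.079), Jak1 KO 5, Jak1 KO 6 or wt 4, whereas Ccl6 differed by 1.86 without Jak1 KO 4. Another 12 genes of this list were too low to be tested, and Ly6g and Mcemp1 were not analysed here.

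Of 16 granulocyte transcription factors and receptors tested, 9 rose, 1 fell and 6 did not pass, with a median of 0.72. Over all genes, 24.5% were called higher and 35.4% lower. Cebpa, which starts the granulocyte program, averaged 6.41 CPM in VD and 0.485 CPM in ZL (a log2 difference of 3.38). With 1 ZL library over the filter level, it could be tested only because it was high in VD. The highest value, 23.4 CPM, was in Jak1 KO 2, the other VD libraries had 1.63 to 4.63 CPM, and without Jak1 KO 2 the difference was 2.62. Csf2rb2, Il6ra, Gfi1, Fcgr3, Csf1r, Csf3r, Runx1 and Csf2rb rose by 2.26, 1.91, 1.81, 1.80, 1.56, 0.83, 0.72 and 0.71. Sfpi1, which encodes PU.1, fell by 0.71, with means of 53.9 CPM in VD and 92.8 CPM in ZL, but this call was lost without Jak1 KO 4 (-0.25, edgeR adjusted p = 0.27), Jak1 KO 1, 2 or 3 or wt 5, and with DESeq2 size factors (-0.60, adjusted p = 0.10). The call of Gfi1 was lost without any 1 of 8 libraries and its difference was 2.78 without wt 4, while that of Csf2rb was lost without Jak1 KO 2, Jak1 KO 5, wt 3 or wt 4, and Csf2rb2 differed by 2.85 without wt 6. Cebpe, the factor of specific granule genes, did not pass the filter and had 1.60, 1.34 and 5.80 CPM in Jak1 KO 1 to 3 and 0.881, 0.672 and 4.98 CPM in wt 1 to 3, against 0 to 0.279 CPM in ZL libraries. Myb, a gene of immature cells with the highest level on the list, averaged 571 CPM in VD and 461 CPM in ZL and did not pass (0.31).

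Of 7 other S100 genes tested, 0 rose (edgeR and DESeq2), 4 fell and 3 did not pass, beside 24.5% of all genes called higher and 35.4% lower. With edgeR 4 were at an unadjusted p under 0.05, and the median was -0.91. S100a11, S100a1, S100a10 and S100a13 fell by 1.496, 1.17, 1.06 and 0.79 (the last not without Jak1 KO 4, -0.39, edgeR adjusted p = 0.061), and S100a6 had a difference of -0.51 that did not pass. S100a5 and S100a4 had differences of -0.91 and 0.13 that did not pass either.

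Markers of other cells moved in both directions, and their part in the late gene difference was not tested. Their counts stand beside 24.5% of all genes called higher and 35.4% lower. Of 11 monocyte and macrophage markers tested, 3 rose (Ly6c2 by 7.61, Mpeg1 by 3.62 and F13a1 by 1.78), 2 fell (C1qc by 1.76 and Ctss by 0.87) and 6 did not pass, with a median of 0.02. Ly6c2 reached the filter level in no ZL library, so it could be tested only because it was high in VD. Mpeg1 was low in ZL too, with 6, 7 and 0 reads in Jak1 KO 4 to 6 and 11, 24 and 66 reads in wt 4 to 6, so its rise carries a like limit. Without Jak1 KO 4 the difference of C1qc was -1.11 and the call of Ctss was lost (-0.53, edgeR adjusted p = 0.11), and without wt 6 Mpeg1 differed by 4.30. The summed level of these markers was 50.9 to 76.2 CPM in VD and 40.1 to 89.1 CPM in ZL. Of 7 erythroid markers tested, edgeR called 1 higher (Alas2, by 4.50) and 2 lower (Car2 by 1.84 and Klf1 by 0.93). With the DESeq2 Wald test 0 were higher and 2 lower. The Alas2 mean rests largely on wt 2, which held 255 CPM against 6.51 to 15.97 CPM in the other VD libraries, and this library also had 3446 CPM of the globin gene Beta-s against 1.34 to 7.02 CPM in the other VD libraries. Without wt 2 the difference of Alas2 was 2.73. The late genes of wt 2, at a sum of 531 CPM, were second lowest in the VD set.

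Of 3 T lineage markers tested, 0 passed (edgeR; 0 at an unadjusted p under 0.05, and 1 higher with DESeq2). The B lineage markers summed to 30.5 to 50.4 CPM in VD and 44.4 to 147 CPM in ZL, and the T lineage markers to 14.3 to 23.8 CPM in VD and 17.9 to 24.0 CPM in ZL. Of the eosinophil, basophil and mast cell genes, both that were tested fell (Cpa3 by 1.03 and Fcer1a by 1.43), and neither passed without Jak1 KO 4 (edgeR adjusted p = 0.12 and 0.076). With DESeq2 size factors Cpa3 did not pass either (-0.91, adjusted p = 0.0505). Among progenitor markers 1 of 4 fell, beside 35.4% of all genes called lower and 24.5% higher. This was Cd34 (by 0.38), a call lost without wt 3 or wt 5, with -0.33 and -0.34. The Cd34 call was also lost with DESeq2 size factors (-0.23, edgeR adjusted p = 0.099), with the DESeq2 Wald test, without Rn45s and without a filter. Stem cell markers rose in 3 of 16 (Fgd5 by 1.28, Hlf by 1.08 and Robo4 by 0.78), fell in 9 (among them Procr, Slamf1, Hoxb5, Ctnnal1, Meis1, Ly6a, Mycn and Esam, by 0.53 for Ctnnal1 to 1.83 for Ly6a, the gene of Sca-1) and did not pass in 4 (Mecom, Tek, Kit and Gata2), with a median of -0.56. With DESeq2 size factors, and likewise without Rn45s, 4 were higher and 6 lower, and Procr, Hoxb5 and Ctnnal1 did not pass. Without Jak1 KO 4, Procr (-0.35) and Hoxb5 (-0.25) did not pass and Ly6a differed by -1.19, and the calls of Ctnnal1 and Robo4 were lost without several of the libraries.

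**Figure D4:**
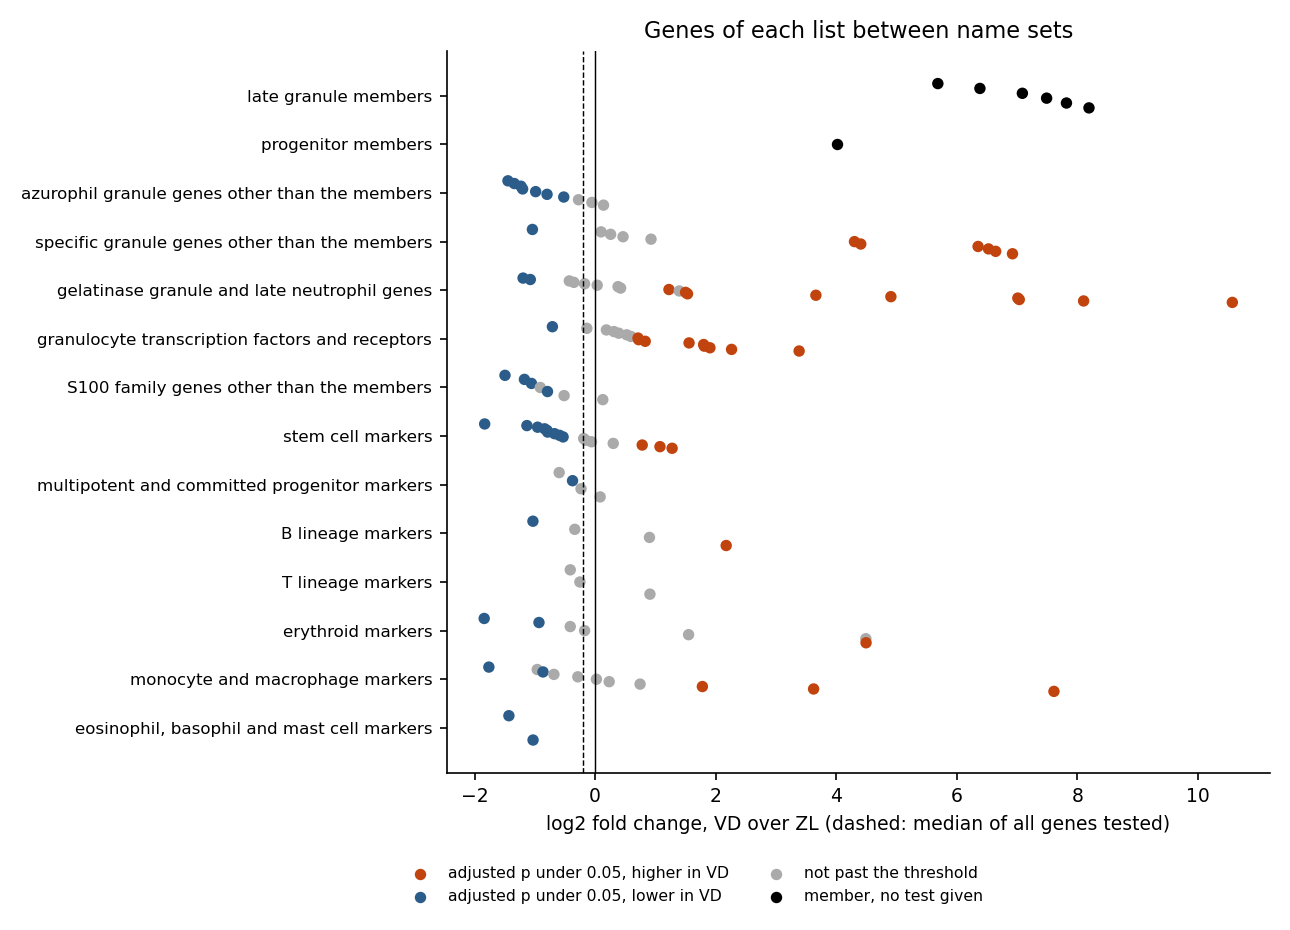
Log2 fold change, VD over ZL, of every tested gene of the 14 lists, 1 point per gene, coloured by the edgeR adjusted p; the dashed line marks the median of all genes (-0.20), Elane was not tested, and the points of Ifitm6 and Trem3 are fitted values against 0 reads in ZL. Specific granule and late neutrophil genes reach beyond 4, as the late genes do, whereas azurophil and other S100 genes lie mostly below 0. The colour supports no difference for genes that could be tested only because they were high in VD.

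The genotypes differ by their label for Jak1, the kinase shared by interferon and many cytokine receptors, and their values are described here. For the late genes the fit over both sets gave, for libraries labelled Jak1 KO over wt, 0.32 ± 0.35 for S100a8, 0.27 ± 0.27 for S100a9, 0.60 ± 0.56 for Ltf, -0.27 ± 0.35 for Camp, 0.01 ± 0.33 for Ngp and 0.16 ± 0.36 for Lcn2 on the log2 scale (SE). Their median was 0.22, beside -0.01 for all genes. Mpo had 0.68 ± 0.57 and Elane 0.54 ± 0.67, the second from the fit to all genes with a read. Each value was less than 2 SEs from 0. None of the 7 genes tested was called (edgeR and DESeq2, with 0 at an unadjusted p under 0.05). With edgeR 0.44% of all genes were called, 1 higher and 57 lower in the libraries labelled Jak1 KO. Nothing is read from the lack of calls among the 7, because they were chosen with their counts known.

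Within VD the 3 libraries of each label overlapped for all 8 genes. The share of all genes that overlap between labels was not counted, so nothing is read from this. The S100a8 means were 142 ± 48.7 CPM in VD libraries labelled Jak1 KO and 130.0 ± 92.6 CPM in wt VD libraries (SD, n = 3 each), and those of Ngp were 176 ± 67.3 CPM in libraries labelled Jak1 KO and 169 ± 103 CPM in wt. For Lcn2 they were 66.5 ± 19.5 CPM in libraries labelled Jak1 KO and 57.3 ± 28.4 CPM in wt. Mpo differed most, at 62.5 ± 9.21 CPM in libraries labelled Jak1 KO and 27.8 ± 34.9 CPM in wt, where 2 of the 3 wt libraries (1.90 and 13.9 CPM) lay below all 3 libraries labelled Jak1 KO and the other one (67.5 CPM) lay among them. Elane averaged 13.8 ± 5.48 CPM in libraries labelled Jak1 KO and 11.1 ± 15.5 CPM in wt.

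Within ZL the labels overlapped for all 8 genes as well, again without a share over all genes to set beside it. Ltf averaged 0.918 ± 0.702 CPM in ZL libraries labelled Jak1 KO and 0.333 ± 0.546 CPM in wt ZL libraries, and Camp 0.265 ± 0.033 CPM in those labelled Jak1 KO and 0.477 ± 0.169 CPM in wt, from 18 and 40 reads in all (SD, n = 3 each). S100a8 averaged 3.31 ± 2.42 CPM in libraries labelled Jak1 KO and 2.17 ± 0.275 CPM in wt, and the spread of the first came from Jak1 KO 4.

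**Figure D5:**
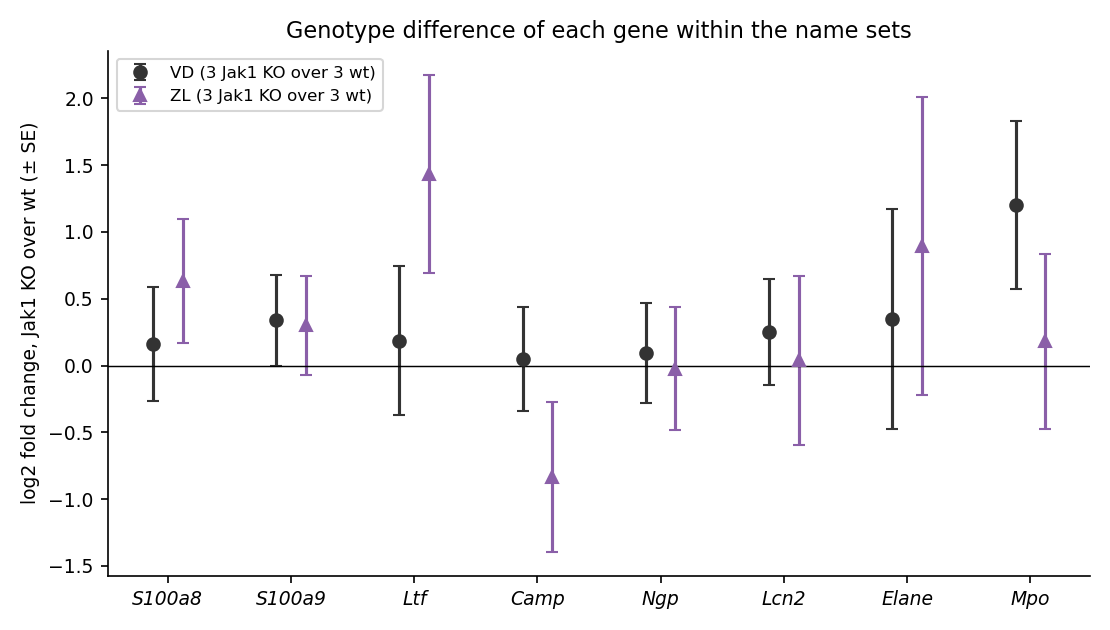
Log2 fold change, 3 libraries labelled Jak1 KO over 3 wt libraries, of each gene within VD (circles) and ZL (triangles), with SE bars, from the edgeR fit to all genes with a read, which includes Elane. The bars of S100a8, Ltf and Camp in ZL and of Mpo in VD do not reach 0 and the other bars do; Mpo in VD stands at 1.20 ± 0.63, Ltf in ZL at 1.43 ± 0.74 and Camp in ZL at -0.83 ± 0.56.

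In the fit to all genes with a read, Mpo in VD stood at 1.20 ± 0.63 and Ltf in ZL at 1.43 ± 0.74, the values farthest from 0 in each set. The difference between the genotype effects of the sets (VD minus ZL, among filtered genes) was -0.43 ± 0.72 for S100a8, 0.07 ± 0.56 for S100a9, -1.29 ± 1.17 for Ltf, 0.88 ± 0.73 for Camp, 0.11 ± 0.68 for Ngp, 0.20 ± 0.88 for Lcn2 and 1.04 ± 1.13 for Mpo. Over all genes this interaction called 0 of 13184 (edgeR), with 182 at an unadjusted p under 0.05, while DESeq2 called 1. Of the 109 genes tested in the 12 other lists, edgeR called 0 between genotypes, with 12 at an unadjusted p under 0.05. Over all genes, edgeR called 0.44%, with 667 of 13184 at an unadjusted p under 0.05. DESeq2 called 1 list gene lower, on the specific granule list, beside 28 of all genes higher and 98 lower. Nothing is read from these counts, because the lists were chosen with earlier results known.

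The genes whose levels were most like those of the late genes, after each set was centred on its own mean, were Nmrk1 (r = 0.87), Dynlt1f (0.87), Rbm4b (0.84), Crem (0.84), Lmcd1 (0.82) and Xlr4b (0.82), over 12 libraries and among 12760 genes, with rho between 0.65 (Crem) and 0.88 (Nmrk1). Without wt 3 and Jak1 KO 3, the libraries farthest from the median of the late score, r was 0.80 for Nmrk1, 0.66 for Dynlt1f, 0.75 for Rbm4b, 0.61 for Crem, 0.73 for Lmcd1 and 0.77 for Xlr4b. Within VD alone r for these genes ran from 0.87 (Lmcd1) to 0.95 (Dynlt1f), and within ZL alone from 0.43 (Dynlt1f) to 0.86 (Nmrk1). The highest r among 12760 genes is high in part through the choice, here and for Elane and Mpo. None of these 6 genes was higher in VD past the threshold, and Nmrk1 was lower (by 0.72). Most like Elane and Mpo were Aoah (r = 0.91), Vnn1 (0.90), Ly6c2 (0.89), A230065H16Rik (0.87), Tifab (0.86) and Wdr96 (0.85), with rho between 0.55 (Tifab) and 0.77 (Ly6c2). Without wt 1 and wt 3, r was 0.57 for Aoah, 0.77 for Vnn1, 0.54 for Ly6c2 and 0.86 for A230065H16Rik. It was 0.49 for Wdr96 and 0.21 for Tifab, whose likeness rests on those 2 libraries. Within VD alone r ran from 0.89 (Wdr96) to 0.96 (Aoah). Within ZL alone it was 0.75 for Vnn1 and 0.71 for A230065H16Rik, but 0.02 for Aoah, 0.19 for Ly6c2, -0.04 for Tifab and 0.11 for Wdr96. The monocyte gene Ly6c2 had 4.71, 7.56 and 7.96 CPM in Jak1 KO 1 to 3 and 1.29, 4.26 and 13.01 CPM in wt 1 to 3, with wt 1 lowest and wt 3 highest as for Elane.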

How the data were processed

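Poly-A TruSeq libraries were made from Trizol extracts of bone marrow LT-HSCs, per the labels' protocols. The authors deposited 1 table of unnormalised read counts by gene, in whole numbers, for the 12 libraries. STAR 2.3.0e, featureCounts, Subread and the mm10 build were used, per the submitters' processing notes. The sources used here give neither the annotation nor a strand setting, so reads of overlapping or antisense genes cannot be told apart. Genotype came from the titles and name set from the library names.

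Counts were fitted in R 4.3.3 with edgeR 4.0.16 (glmQLFit, glmQLFTest) with terms for name set and genotype. TMM scaled the library sizes, filterByExpr kept 13184 genes, and Benjamini-Hochberg adjustment ran over these with a threshold of 0.05. The SE of a log2 fold change was taken as its size over the root of the F statistic. A model of 4 groups (genotype by set) gave the effects within sets and the interaction. Log2 CPM had a prior count of 2. Both fits were checked on simulated counts, with the same dispersion for every gene and few genes changed between sets. In these data 7905 genes were called between sets, so the check does not show how the fits perform on them. DESeq2 1.42.0 was an alternative, as were its size factors, other filters, Rn45s left out, each library or 3 ZL libraries left out, a replicate block, no set term and each set alone.

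Of the 8 genes, 7 passed the filter. Elane did not, so its fold changes and those within sets come from a fit to all genes with a read. In the main fit the median of Elane and Mpo is that of Mpo alone. Under alternatives where Elane passed, the median is that of both genes. The 8 genes, the 12 other lists and the alternatives were chosen with earlier results of these data known. Named genes were the 8, list genes past the threshold or highest on their list, and the 6 genes most like each group among those with a mean of at least 1 CPM. Ctsg, Cebpe, Hba-a1, Hba-a2, Cd3e, Rn45s, Jak1 and some genes that did not pass were named after their values were seen. The calls of the B lineage list and the values of 1 stem cell marker are not reported here. Depth was 8989965 to 28701855 counts. Reads were counted without molecular identifiers, so floors of 3 reads cover counting error only.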

Additional observations from a re-analysis of the deposited data

Results flagged for a closer look

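In each gene and each group of 6 libraries (32 groups), the gap between the most extreme library and its nearest neighbour was compared with the whole range on the log2 CPM scale. A library stood apart in 2 of the 32. The groups share libraries, and the groups by genotype mix both name sets, so this count cannot be set against chance. S100a8 in the ZL set had a gap ratio of 0.791 (above Dixon's 95% critical value for 6), from 6.11 CPM in Jak1 KO 4 against 1.79 to 2.33 CPM in the other ZL libraries. S100a9 was also highest in that library (4.37 CPM), though its gap ratio of 0.322 was below the critical value. Elane in the VD set had a gap ratio of 0.634, from 0.068 CPM (1 read) in wt 1 against 4.37 to 28.8 CPM in the other VD libraries. This ratio was barely above the critical value and, at 1 read, depends on the prior count of 2.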

How the results depend on the processing

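The late genes' median, VD over ZL, kept its sign under all 18 alternatives (7.04 to 7.52). That of the progenitor genes did so too (3.36 without wt 3 to 5.10 without wt 1). It is the value of Mpo alone where Elane did not pass the filter, and of both genes where Elane did, as without wt 1. These values are therefore not alike, and Mpo itself ran from 3.36 without wt 3 to 4.31 without wt 1. Genes called between sets numbered 7905 and 7246 to 8650 under alternatives. The median of all genes shifted from -0.20 with TMM to -0.06 with DESeq2 size factors, -0.07 without Rn45s and -0.55 without a filter; higher genes made 40.9% of these calls with TMM and 48.4% with DESeq2 size factors. Of the 64 list genes called between sets, 49 kept their call under every alternative that tested them, 15 lost it at least once and 0 changed sign. The 64 include genes that could be tested only because they were high in VD, and for those a kept call supports no difference. Without a filter, 14 rather than 9 late neutrophil genes and 5 rather than 3 monocyte genes were higher, and stem cell markers were higher in 6 rather than 3 without Jak1 KO 4, Jak1 KO 6 and wt 6.

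Between genotypes 58 genes were called: 126 with the DESeq2 Wald test, 96 without Jak1 KO 4, Jak1 KO 6 and wt 6 together, 14 without a set term, 149 in VD alone, 0 in ZL alone (edgeR) and 39 to 77 with each library left out. In the model of 4 groups, edgeR called 2 genes higher and 21 lower within VD, and 0 higher and 22 lower within ZL. The counts of each set alone therefore do not show a genotype difference confined to VD. What made the counts differ between alternatives was not tested. The interaction called 0 genes with edgeR and 1 with the DESeq2 Wald test. The late median stayed positive in all 22 alternatives (0.03 to 0.49) and so did Mpo (0.13 to 1.35, the highest without wt 3; 0.36 without wt 1). Camp was positive in 2 of 21, Ngp in 14 of 22 and Lcn2 in 19 of 21 (Camp and Lcn2 did not pass the filter in ZL alone). With the replicate block 72 genes were called, the late median was 0.25 and that of Mpo 1.10. What same-numbered libraries share beyond a number is not stated. Their deviations correlated at 0.043 to 0.668, the highest for Jak1 KO 6 and wt 6, and 6 of 12 libraries correlated best with their own number. Whether such libraries form pairs was not tested.

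In ZL, where 3 reads are 0.095 to 0.226 CPM, Camp, Lcn2 and Elane had few reads, which limits any genotype difference there.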
